A study of Nasonia vitripennis with 76 samples.

Results

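ACP, the AKH/corazonin-related peptide, and Acpr, the gene of its receptor, were followed through heads and abdomens of the parasitoid wasp Nasonia vitripennis. They are 2 of the 14621 genes with counts, taken by name, and both were measured in each group. ACP is a neuropeptide of insects that is related to adipokinetic hormone (AKH), which mobilises fat and sugar stores, and to corazonin, a stress-related peptide. Each of the 3 peptides has its own receptor, a protein that spans the cell membrane and signals through G proteins, and the role of ACP is the least well known of them. Neuropeptides are made by small numbers of nerve cells, whereas their receptors can sit on many target cells. The symbol table also lists HrTH, the usual abbreviation of hypertrehalosaemic hormone and a name given to peptides of the AKH family, as another name of the gene ACP, and the files do not settle which peptide its transcript encodes. In bulk RNA, fewer cells of a type and less RNA per cell cannot be told apart.

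Each group came from the TRA line, an induced neo-polyploid line that goes back to a knockdown of the sex-determination gene transformer, so no group stands for an unmanipulated wasp. Adults were collected at 1 day after emergence. The 16 groups were heads and abdomens of diploid (2N) and triploid (3N) females of generations F2 and F14, and of haploid (1N) and diploid males of generations F3 and F15. Of these, 14 groups hold 5 libraries, and 2 abdomen groups, those of F2 2N females and F3 2N males, hold 3 each. The labels do not say whether a library came from 1 wasp or a pool, nor whether libraries were reared separately, so p-values measure only the spread between these libraries. No batch is given and no group spans generations, so generation cannot be told apart from a library batch. Females were of F2 and F14 and males of F3 and F15, so sex cannot be told apart from generation or a library batch either.

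Of the 76 libraries, A34, labelled as an F2 3N female head, carried an abdomen profile and was set apart. Its level of oskar, a gene of the ovary and germ line, was 741.1 CPM (a library's counts rescaled to a common total by the TMM method), against at most 24.22 CPM in the other heads. It had no count of Lop1, an opsin of the eye, and its ACP level was 0.0636 CPM and its Acpr level 1.18 CPM. The remaining 39 heads had Lop1 levels of 726.8 to 19790 CPM and the 36 abdomens levels of 0 to 5.74 CPM. Total counts ran from 14.2 to 32.5 M in the heads, with a median of 17.8 M, and from 15.3 to 60.1 M in the abdomens, with a median of 26.3 M.

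Both genes were head genes in every group. ACP ranged from 8.85 to 104.8 CPM over the 39 heads and from 0 to 4.28 CPM over the 36 abdomens. Acpr ranged from 72.4 to 156.4 CPM in heads and from 0.251 to 13.97 CPM in abdomens. No abdomen library reached the lowest head library for either gene. In females the head exceeded the abdomen by 6.48 ± 0.39 (SE) on the log2 scale for ACP and by 6.73 ± 0.22 for Acpr, with adjusted p = 7.76e-17 and 7.38e-24 in edgeR's quasi-likelihood test. In males the head difference was 4.30 ± 0.28 for ACP and 4.04 ± 0.14 for Acpr on the log2 scale, with adjusted p = 5.65e-16 and 1.11e-23 in the same test. An adjusted p below 0.05 is a call here; it is adjusted over the genes of a comparison, not over the 44 comparisons made. The tissues differed widely, with 88.7% of the genes tested called in females and 80.5% in males, so a call by itself sets neither gene apart. All 8 pairs of head and abdomen groups were called for both genes, from 3.57 to 7.08 on the log2 scale for ACP and from 3.58 to 8.14 for Acpr. In these pairs the share of genes called was 79.5% in F2 2N, 80% in F2 3N, 78.1% in F14 2N and 79.2% in F14 3N females. It was 67.4% in F3 1N, 63.9% in F3 2N, 61.6% in F15 1N and 64.6% in F15 2N males.

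**Figure D1:**
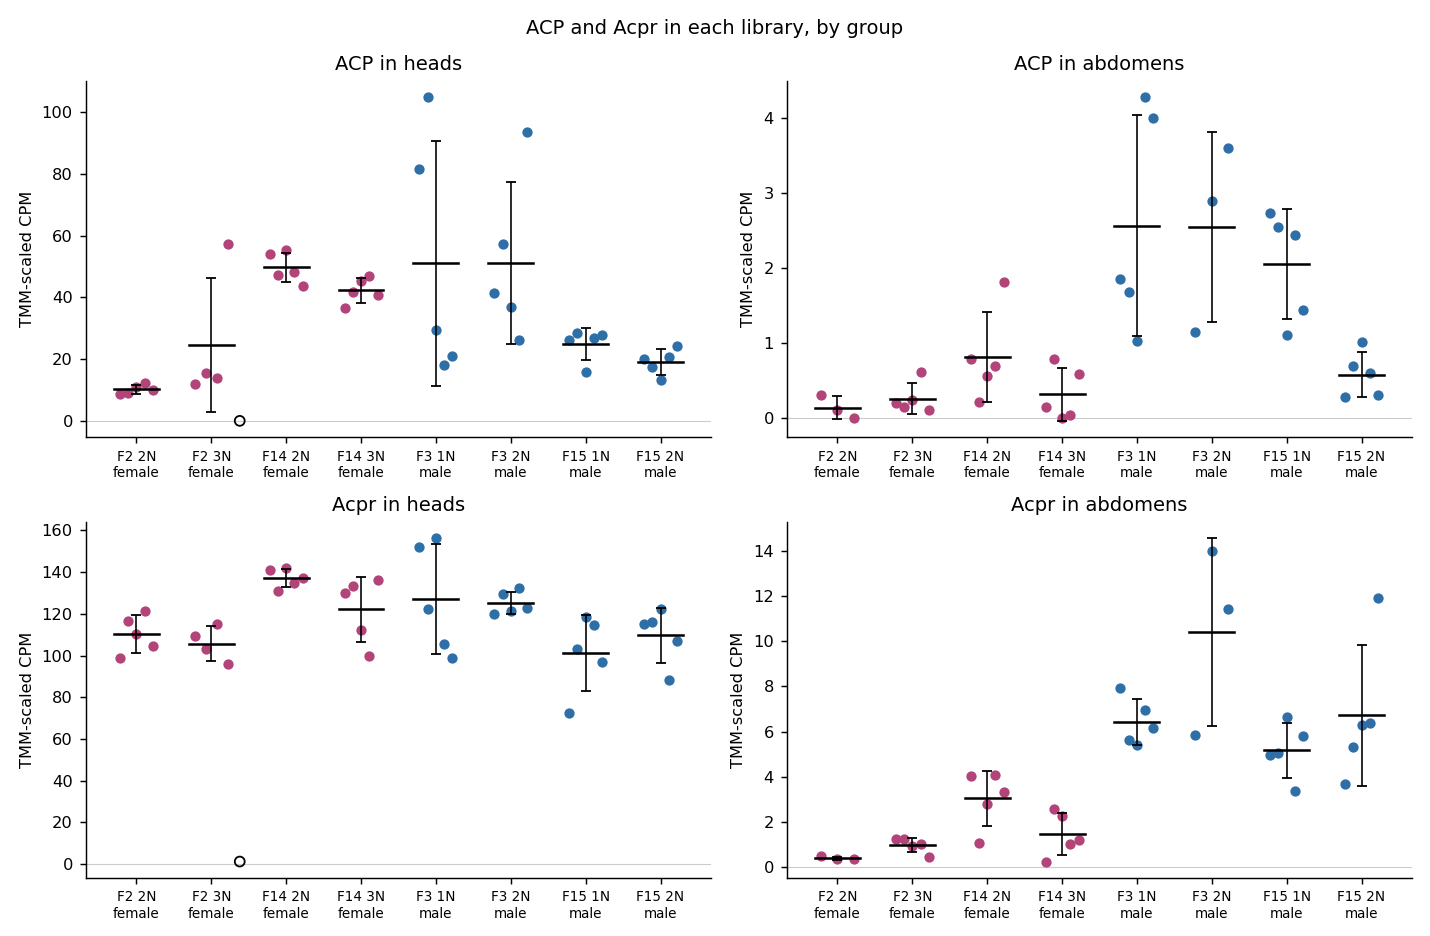
TMM-scaled CPM (y axis, a scale of its own in each panel) of ACP (top) and Acpr (bottom) in heads (left) and abdomens (right), by generation, ploidy and sex (x axis). Each point is a library, thick lines are means and bars are SD, and the open circle is A34. Means of ACP differed up to 4.96-fold between head groups and those of Acpr up to 1.36-fold.

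Among heads the group means of the peptide lay further apart than those of the receptor. Mean ACP levels of the 8 head groups spanned 4.96-fold, and those of Acpr spanned 1.36-fold. The ACP order ran from F3 2N males (51.03 ± 26.2 CPM, SD, n = 5) and F3 1N males (51.01 ± 39.7, n = 5), through F14 2N females (49.7 ± 4.83, n = 5) and F14 3N females (42.3 ± 4.06, n = 5). The lower part held F15 1N males (25 ± 5.23 CPM, SD, n = 5), F2 3N females (24.6 ± 21.7, n = 4), F15 2N males (19.1 ± 4.16, n = 5) and F2 2N females (10.3 ± 1.51, n = 5). The F3 male and F2 3N female means were raised by single libraries, A15A at 2N, A1A and A2A at 1N, and A35. By median the order was F14 2N females (48.21 CPM), F14 3N females (41.65), F3 2N males (41.43) and F3 1N males (29.55). Then came F15 1N males (26.86 CPM), F15 2N males (20.12), F2 3N females (14.7) and F2 2N females (10.06). Of the 15 steps between neighbours in the order of means of all 16 groups, 3 had library ranges that did not overlap. These were F14 3N female heads over F15 1N male heads, F15 2N male heads over F2 2N female heads, and F2 2N female heads over the highest abdomens.

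The Acpr order of heads began with F14 2N females (137.1 ± 4.49 CPM, SD, n = 5) and F3 1N males (127.1 ± 26.3, n = 5). It went on with F3 2N males (125.1 ± 5.42, n = 5), F14 3N females (122.2 ± 15.7, n = 5), F2 2N females (110.3 ± 9.002, n = 5) and F15 2N males (109.7 ± 13.1, n = 5). It ended with F2 3N females (105.8 ± 8.22 CPM, SD, n = 4) and F15 1N males (101.0 ± 18.2, n = 5). For Acpr, 1 of the 15 steps had ranges that did not overlap, the one between heads and abdomens.

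In abdomens both genes were low. ACP was highest in F3 1N males (2.57 CPM, range 1.02 to 4.28) and F3 2N males (2.54, range 1.14 to 3.60), followed by F15 1N males (2.05, range 1.10 to 2.73). The other abdomen groups had mean ACP levels of 0.135 to 0.811 CPM, and ACP had no count in 1 library of F14 3N females and 1 of F2 2N females. Acpr was highest in the 4 male groups, with means of 5.17 to 10.4 CPM, and the 4 female groups had means of 0.397 to 3.05 CPM. The largest ACP count of any F2 female abdomen was 18, so values there carry a large counting error.

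Levels of the 2 genes can be set against each other only per transcript length, as TPM. In heads ACP was at 122.94 to 997.28 TPM and Acpr at 82.91 to 189.07 TPM. ACP lay above Acpr in 35 of 39 heads and in 31 of 36 abdomens. The ratio of ACP to Acpr TPM in heads had a median of 2.37, with a range of 0.81 to 7.88. In F2 2N females peptide and receptor were nearly level, at a ratio of 0.965 ± 0.097 (SD, n = 5). In F15 2N males the ratio was 1.57 ± 0.47 (SD, n = 5), in F15 1N males 2.24 ± 0.73 (SD, n = 5) and in F2 3N females 2.42 ± 2.32 (SD, n = 4). The last mean rests on A35, with a ratio of 5.88 beside 1.10 to 1.56 in the other 3 libraries. It was 2.91 ± 0.65 in F14 3N females and 2.97 ± 0.21 in F14 2N females (SD, n = 5 each). The 2 F3 male head groups had the highest mean ratios, 3.69 ± 2.74 at 1N and 3.84 ± 1.84 at 2N (SD, n = 5 each). There A1A and A2A had ratios of 5.06 and 7.88 beside 1.69 to 2.10 in the other 1N libraries, and A15A had 6.80 beside 1.93 to 4.15 in the other 2N libraries.

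**Figure D2:**
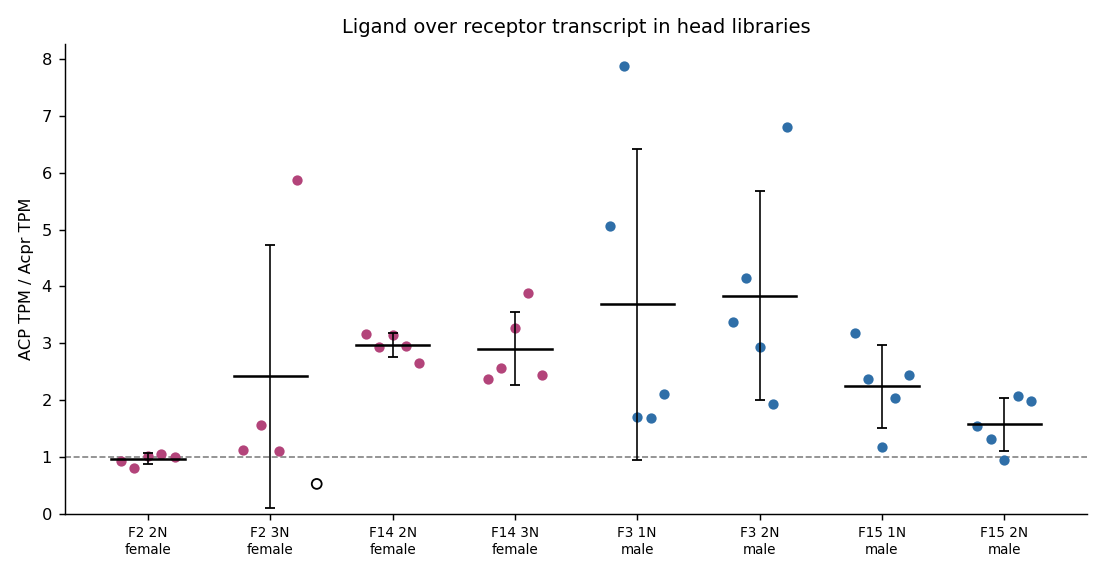
Ratio of ACP to Acpr TPM (y axis, no unit) in the head libraries by generation, ploidy and sex (x axis); points are libraries, thick lines means, bars SD, the open circle A34 and the dashed line equal levels. The F2 2N female heads sit at 0.81 to 1.06, and the F14 2N female heads at 2.65 to 3.17.

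The TPM scale changes the size of some ACP differences. The effective length behind TPM, taken from the ratio of counts to TPM, was for ACP 9.48 to 9.90% of that of Acpr in F2 2N female heads and 12 to 12.4% in F14 2N female heads. The rise of ACP between these groups was 4.84-fold in CPM means and 3.20-fold in TPM means.

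In 2N heads the peptide moved in opposite directions in the 2 sexes between the early generations (F2 females, F3 males) and the late ones (F14, F15). In 2N female heads ACP stood at 8.85, 8.95, 11.2, 12.4 and 10.1 CPM in F2 and at 53.96, 47.4, 55.3, 48.2 and 43.7 CPM in F14. Every F14 library was above every F2 library, and 57.2% of genes tested were called in this comparison. The rise was 2.26 ± 0.33 on the log2 scale, with adjusted p = 2.44e-05 in edgeR. It was at least 1.68 on the log2 scale and called under each of the 8 other settings tried.

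In 2N male heads ACP stood at 41.4, 57.2, 36.9, 26.2 and 93.5 CPM in F3 and at 20.1, 17.3, 13.1, 20.8 and 24.3 CPM in F15. Every F15 library was below every F3 library. ACP fell by 1.44 ± 0.44 on the log2 scale with edgeR's adjusted p = 0.0199, where 30.2% of genes were called. Without A15A the difference was -1.10 on the log2 scale and not called (adjusted p = 0.0617 in edgeR). Without A1A, A2A and A15A it was again -1.10 and was called (adjusted p = 0.00127).

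The other ploidies were less even. In 1N male heads the F3 values were 81.7, 104.8, 29.6, 17.99 and 21.03 CPM, and the F15 values were 26.1, 28.5, 15.8, 26.9 and 27.7 CPM. The ranges overlapped, with 2 of the F3 libraries inside the F15 range and 3 above it. The difference was -1.12 ± 0.43 on the log2 scale, with adjusted p = 0.0444 in edgeR and 42.1% of genes called. The call was lost when any of 7 of the 10 libraries was left out (adjusted p up to 0.240), and the difference became 0.09 ± 0.25 without A1A, A2A and A15A. In 3N female heads the F2 values were 12.04, 15.5, 13.96 and 57.2 CPM and the F14 values 36.7, 41.7, 45.2, 47.1 and 40.7 CPM. All F14 libraries lay above 3 of the F2 libraries and below the fourth, A35. The difference of 0.75 ± 0.34 on the log2 scale was not called (adjusted p = 0.114 in edgeR, 26.8% of genes called). Without A35 it was 1.62 ± 0.14 on that scale, with adjusted p = 5.39e-08 in edgeR. A35 was left out with earlier results known and had the highest ACP of its group. Its removal also narrows the spread, so this p-value is a description only.

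Taken as a mean over both ploidies, ACP rose by 1.51 ± 0.24 on the log2 scale in female heads (adjusted p = 4.03e-05 in edgeR, 60.1% of genes called). In male heads the mean over both ploidies fell by 1.28 ± 0.31 on the log2 scale (adjusted p = 0.00200 in edgeR, 51.4% of genes called). Without A1A, A2A and A15A the fall in males was 0.51 ± 0.17 on the log2 scale with adjusted p = 0.0184 in edgeR.

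The receptor followed with small steps. In 2N female heads Acpr was 98.7 to 121.3 CPM in F2 and 131.0 to 142.0 CPM in F14, and the ranges did not overlap. Over both ploidies it rose by 0.25 ± 0.06 on the log2 scale in female heads and fell by 0.31 ± 0.10 in male heads, with adjusted p = 0.00165 and 0.0153 in edgeR. These steps depend on the scale or on few libraries. The female rise was 0.11 on the log2 scale with adjusted p = 0.282 in limma on TPM. The male fall was 0.26 on that scale with adjusted p = 0.0623 in edgeR without A1A, A2A and A15A.

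With these changes the sex difference of ACP in 2N heads had opposite signs in the 2 periods. Early males exceeded early females by 2.34 ± 0.42 on the log2 scale (51.03 against 10.3 CPM, adjusted p = 5.70e-05 in edgeR), and the libraries did not overlap. Late males were below late females, with a difference of -1.37 ± 0.40 (19.1 against 49.7 CPM, adjusted p = 0.00492 in edgeR), again without overlap. The background was 44.6% of genes called early and 52.7% late. The late minus early sex difference was itself called, at -3.71 ± 0.58 on the log2 scale with adjusted p = 2.78e-06, where 57.9% of genes were called. It stayed between -3.88 and -3.36 when each library was left out in turn. Without A35, A1A, A2A and A15A it was -3.39 ± 0.26, in a setting that was not planned and that narrows the spread. With A34 kept in its labelled group the late difference had adjusted p = 0.0642 in edgeR.

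Averaged over both periods, the sex difference in 2N heads was not called for ACP (0.49 ± 0.28, adjusted p = 0.185 in edgeR) or Acpr (-0.06 ± 0.08, adjusted p = 0.650), where 34.6% of genes were called. The receptor's own early difference was 0.20 ± 0.12 on the log2 scale (not called), and its late difference was -0.31 ± 0.12 (adjusted p = 0.0261 in edgeR). The late minus early difference of Acpr was -0.52 ± 0.17 (adjusted p = 0.00887 in edgeR). On TPM, limma gave -0.09 for the late difference and -0.26 for the late minus early difference, neither of them called. Between 1N males and 2N females, the usual ploidies of the sexes in this wasp, the difference in heads was 0.66 ± 0.28 for ACP and -0.12 ± 0.08 for Acpr, not called, with a background of 36.4%. For ACP it ranged from 0.42 to 0.77 with each library left out and was called without A73, A3, A4 or A5 (adjusted p down to 0.0263 in edgeR). It was 0.05 without A35, A1A, A2A and A15A.

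**Figure D3:**
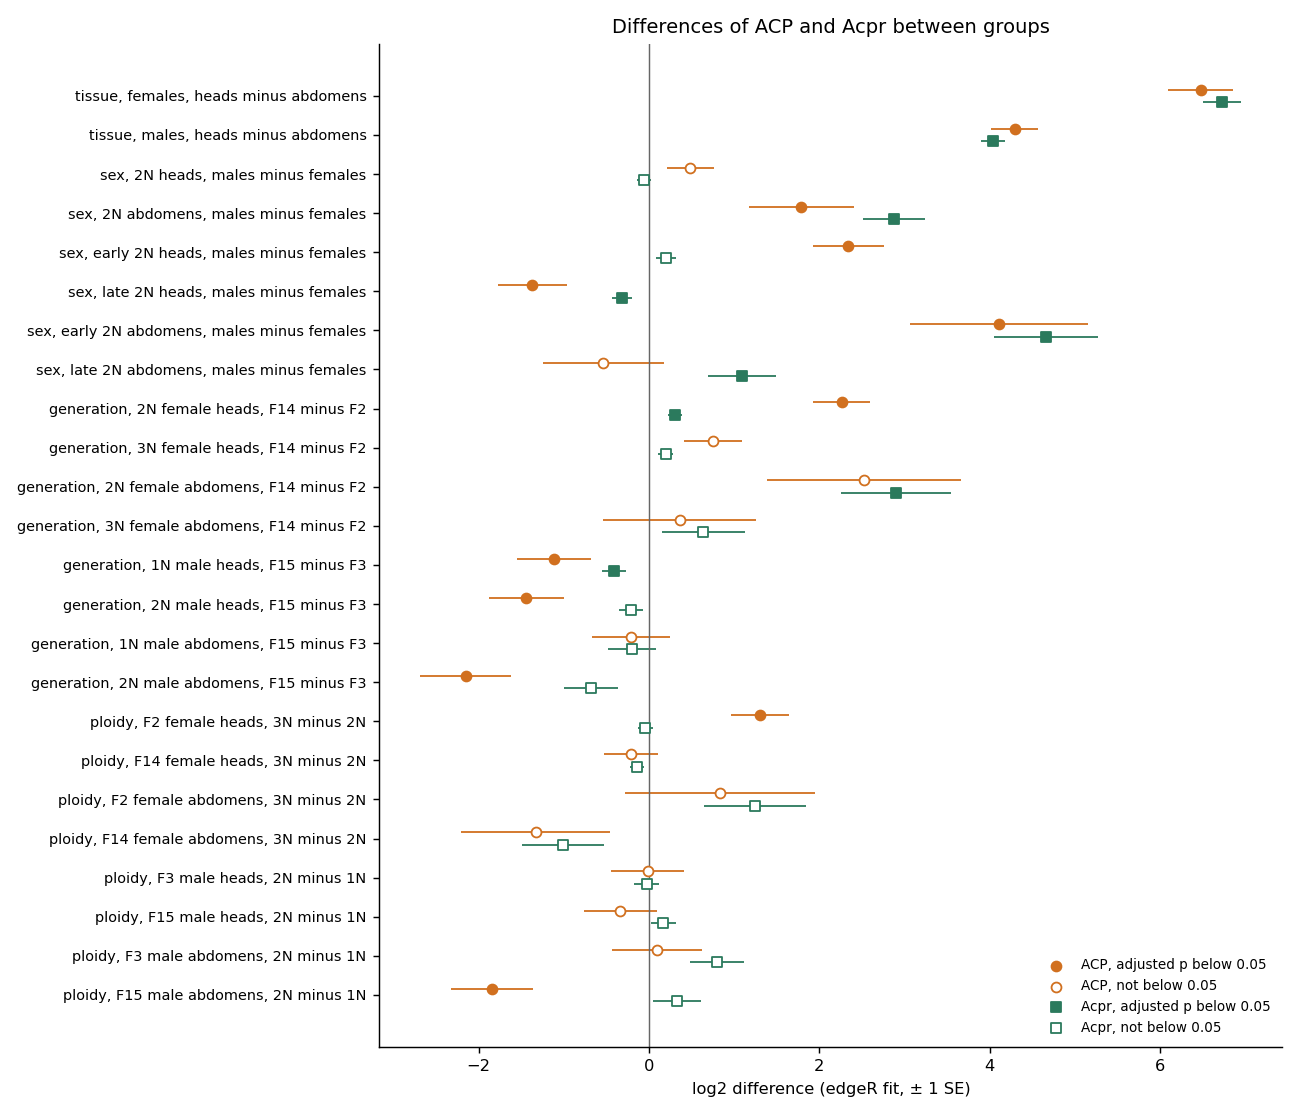
Log2 differences (x axis, edgeR, ± 1 SE) of ACP (circles) and Acpr (squares) for each named comparison (y axis); filled symbols are adjusted p below 0.05. ACP lies at 2.34 for the early and -1.37 for the late sex difference of 2N heads, where Acpr lies at 0.20 and -0.31.

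The other measured peptide genes were compared in the same fits. By symbol the list held 4 besides ACP and Acpr: Akhr, the receptor of AKH; Pdf, a peptide of clock neurons; Burs, a subunit of the cuticle-tanning hormone bursicon; and Eth, the ecdysis-triggering hormone. No gene carries a symbol for AKH itself, corazonin or the corazonin receptor. Burs and Eth did not pass the filter on low counts in heads. The sex difference of Pdf in 2N heads was 1.44 ± 0.32 early on the log2 scale (adjusted p = 0.000667 in edgeR) and -0.59 ± 0.32 late (not called). Its late minus early difference was -2.03 ± 0.45 on the log2 scale (adjusted p = 0.000311 in edgeR). Akhr was higher in 2N male than in 2N female heads in both periods, by 1.24 ± 0.25 and 0.95 ± 0.25 on the log2 scale, both called. Of the 2 tested list members, 1 rose and none fell in female heads from F2 to F14 (Pdf, 0.60 ± 0.24 on the log2 scale), where 60.1% of all genes were called. In male heads from F3 to F15, Akhr rose by 0.67 ± 0.17 and Pdf fell by 0.71 ± 0.20 on the log2 scale.

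Head libraries with high ACP also differed in other measures. A35, A1A, A2A and A15A had ACP levels of 57.2, 81.7, 104.8 and 93.5 CPM, the highest values of their groups. They also had fewer genes with a count than the rest of their group, 11366 against 12368 to 12641 for A35, 11729 and 11862 against 12305 to 12734 for A1A and A2A, and 11208 against 12184 to 12570 for A15A. These numbers were not adjusted for total counts, which were 15.9, 16.2, 16 and 14.2 M in A35, A1A, A2A and A15A. In the rest of their groups total counts were 20.3 to 21.6 M for A35, 19 to 26.8 M for A1A and A2A, and 20.7 to 28.1 M for A15A. Their Lop1 levels were 19790, 11670, 16040 and 9232 CPM, and their Pdf levels 422.1, 195.1, 241.7 and 219.3 CPM. In the rest of their groups Pdf was at 91.3 to 99.3 CPM for A35, 85.02 to 91.3 CPM for A1A and A2A, and 162.1 to 277.5 CPM for A15A, which lay inside that range. Or1, the odorant coreceptor and a marker of the antenna, was at 2.52, 9.41, 6.82 and 21.6 CPM in the same libraries. In the rest of their groups Or1 was at 333 to 367.9 CPM for A35 and 132.8 to 175.4 CPM for A1A and A2A. For A15A the rest had Or1 at 7.96 to 43.4 CPM, with A15A inside that range. Acpr was at 95.7, 152.1, 122.5 and 122.8 CPM in A35, A1A, A2A and A15A, within 72.4 to 156.4 CPM of all heads. Across groups, F2 2N female heads, with the lowest ACP, had 12386 to 12610 genes with a count, and F14 female heads had 10575 to 11644. Total counts were 21.5 to 32.5 M in these F2 heads and 15.9 to 17.9 M in these F14 heads. Or1 was at 126.6 to 373.7 CPM in F2 2N female heads and at 3.18 to 48.55 CPM in F14 2N female heads. In F15 2N male heads Or1 was at 1.67 to 144.8 CPM. F3 2N male heads without A15A had 12184 to 12570 genes with a count and ACP at 26.2 to 57.2 CPM. F15 male heads had 11933 to 12364 genes with a count and ACP at 13.1 to 28.5 CPM. Total counts were 20.7 to 28.1 M in these F3 heads and 15.3 to 20.6 M in these F15 heads. Whether these measures have a part in the ACP differences was not tested.

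**Figure D4:**
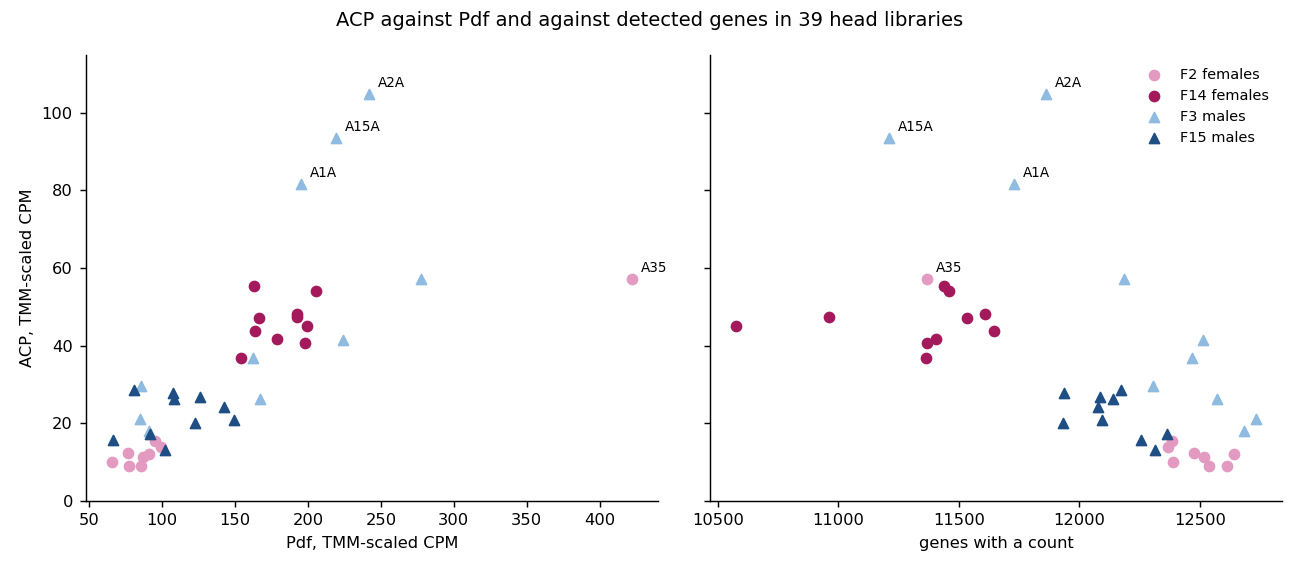
ACP level (y axis, TMM-scaled CPM) against Pdf level (left, x axis, TMM-scaled CPM) and against the number of genes with a count (right, x axis) in the 39 head libraries; points are libraries, and 4 are named. The F14 females hold 10575 to 11644 genes with a count, and A35, A1A, A2A and A15A lie at 57.2 to 104.8 CPM of ACP. Genes with a count are not adjusted for total counts, which were lower in these 4 libraries than in the rest of their groups.

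Within head groups, peptide and receptor did not vary together detectably. Over the 39 heads, with each library's log2(CPM + 1) taken as its deviation from the group mean, Pearson's r was 0.009 (permutation p = 0.966, 100000 resamples within groups). Spearman's rho was -0.084 (permutation p = 0.654). Leaving out A2A and A15A, the 2 libraries farthest from the median of ACP, gave r = 0.034. The group means behind this r still included them. This was 1 relation, so its p needed no adjustment.

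In 2N abdomens both genes were higher in males when averaged over the early and late periods. Acpr was higher in males than in females by 2.88 ± 0.36 on the log2 scale and ACP by 1.79 ± 0.61, with adjusted p = 1.27e-08 and 0.00837 in edgeR. The sexes' abdomens differed in 85.8% of genes tested. In the early generations Acpr was at 5.86, 13.97 and 11.4 CPM in F3 2N males and at 0.478, 0.356 and 0.357 CPM in F2 2N females, a difference of 4.66 ± 0.61 on the log2 scale. ACP was at 1.14, 2.90 and 3.60 CPM in these males and at 0.307, 0.097 and 0 CPM in these females, a difference of 4.11 ± 1.05. Neither gene's groups overlapped, and adjusted p was 4.35e-08 for Acpr and 0.00071 for ACP in edgeR, with 81.5% of genes called.

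In the late generations the gap was narrower. Acpr was at 3.67, 5.32, 6.30, 6.39 and 11.9 CPM in F15 2N males and at 4.02, 1.06, 2.78, 4.07 and 3.31 CPM in F14 2N females, with overlap. Its late difference of 1.09 ± 0.40 on the log2 scale (adjusted p = 0.0156 in edgeR, 75.4% of genes called) was not called without A67 or without A90. ACP did not differ detectably in the late period (-0.54 ± 0.71, adjusted p = 0.501). The late minus early sex difference was -3.56 ± 0.69 for Acpr and -4.65 ± 1.25 for ACP on the log2 scale (adjusted p = 0.000128 and 0.00315 in edgeR, 45.1% of genes called). With 1N males in place of 2N males the sex difference was 2.34 ± 0.34 for Acpr and 2.69 ± 0.61 for ACP, called for both, with 86.9% of genes called.

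Nerve-tissue genes were followed beside Acpr in abdomens. The nerve list of 15 held Syt1, a synaptic vesicle protein, the sodium channel Para, the GABA receptor subunit LCCH3 and 12 subunits of the nicotinic acetylcholine receptor. In heads, 14 of them were higher than in abdomens in females and 12 in males, beside 5395 of 12145 and 5026 of 12355 genes tested. The exception in both sexes was nAChRa9, with head minus abdomen differences of -5.71 and -3.01 on the log2 scale. In males nAChRa3 (0.44) and nAChRb3 (0.11) were not called between the tissues. At 2N, 14 of its 15 genes were higher in male abdomens and none lower. Of the 12252 genes tested, 5627 were higher and 4890 lower there, 85.8% in either direction. The median of the list was 2.19 on the log2 scale, beside 0.27 over all genes tested. Their summed level was 17.5 to 26.8 CPM in F2 2N female abdomens, 49.2 to 91.0 in F14 2N females, 236 to 347 in F3 2N males and 133 to 236 in F15 2N males. No gene of the list was at 0 in all libraries of any of these groups. Lop1 and Pdf, markers of the head, were at most 5.74 and 0.711 CPM in abdomens. Akhr was higher in 2N male abdomens too, by 5.64 ± 0.44 on the log2 scale. Pdf and Eth were also called higher there, by 1.74 ± 0.67 and 3.66 ± 1.62 (adjusted p = 0.0175 and 0.0406 in edgeR). Both were near the floor, with highest means in 2N abdomens of 0.426 CPM for Pdf and 0.622 CPM for Eth, in F3 males. The part of nerve tissue in the Acpr difference was not tested. In heads the list was mixed between generations, with 6 of 14 tested genes higher and 5 lower in F14 than in F2 females, and 2 higher and 7 lower in F15 than in F3 males, where 60.1% and 51.4% of all genes were called.

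Between generations, Acpr rose in female abdomens by 1.77 ± 0.40 on the log2 scale (adjusted p = 0.00236 in edgeR, 43.9% of genes called). The rise was 2.90 ± 0.64 at 2N (adjusted p = 0.00256, 45.9% of genes called), with no overlap between the 3 F2 and the 5 F14 libraries. At 3N it was 0.64 ± 0.49 (not called). In the 2N comparison 11 of the 15 nerve genes rose and none fell, while of the 10855 genes tested 2243 rose and 2739 fell. Akhr rose by 2.99 ± 0.67 there. ACP had a difference of 1.44 ± 0.72 in female abdomens that was not called (adjusted p = 0.112).

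In male abdomens ACP fell between F3 and F15 by 1.18 ± 0.35 on the log2 scale (adjusted p = 0.00882 in edgeR, 53.3% of genes called), and Acpr differed by -0.44 ± 0.21 (adjusted p = 0.0922). Akhr rose by 0.87 ± 0.24 and Eth fell by 6.31 ± 1.415 there (adjusted p = 0.00565 and 0.00198 in edgeR). Eth was at most 3.35 CPM in male abdomens. The ACP fall was 2.15 ± 0.53 at 2N (adjusted p = 0.00396, 39.7% of genes called). F15 2N males were at 0.277, 0.690, 1.01, 0.598 and 0.2999 CPM, below each of the 3 F3 2N libraries. In this 2N comparison 5 of the 15 nerve genes fell and 1 rose, a share near the 39.7% of all genes called. The median of the list was -0.84 on the log2 scale beside -0.04 over all genes. Syt1 was among those that fell, by 1.00 on that scale, and nAChRa3 rose by 3.27 (adjusted p = 0.00766 and 0.000172 in edgeR). The part of nerve tissue in the ACP fall was not tested. At 1N the ACP difference was -0.21 ± 0.46 and was not called, with a background of 45.7%.

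Ploidy gave few differences in either gene. Of 8 ploidy comparisons, ACP was called in 2 and Acpr in none. In F15 male abdomens ACP was at 2.73, 2.55, 1.10, 2.44 and 1.44 CPM in 1N males and, as given above, at 0.277 to 1.01 CPM in 2N males. The groups did not overlap, and the 2N minus 1N difference of ACP was -1.84 ± 0.48 on the log2 scale (adjusted p = 0.0390 in edgeR, 4.11% of genes called). The call was lost when any of 8 of the 10 libraries was left out, with adjusted p of up to 0.0915, and adjusted p was 0.0900 in a fit of these 2 groups alone. Acpr differed by 0.32 ± 0.28 there and was not called.

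In F2 female heads ACP was higher at 3N by 1.3 ± 0.34 on the log2 scale (adjusted p = 0.0334 in edgeR, 5.82% of genes called). The higher mean rested on A35, at 57.2 CPM beside 12.04 to 15.5 CPM in the other 3N libraries and 8.85 to 12.4 CPM at 2N. Without A35 the difference was 0.43 ± 0.13 on the log2 scale with adjusted p = 0.0549. The call was lost when any of 6 of the 9 libraries was left out, A35 and each 2N library, with edgeR's adjusted p up to 0.0814. Pdf, also high in A35, was higher at 3N by 1.22 ± 0.35 (adjusted p = 0.0471 in edgeR). With A34 kept the ACP difference was 0.98 with adjusted p = 0.384.

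The remaining ploidy comparisons were not called for ACP or Acpr. In F14 female heads the 3N minus 2N difference was -0.21 ± 0.32 for ACP and -0.15 ± 0.08 for Acpr on the log2 scale, with a background of 3.57%. In F15 male heads the 2N minus 1N difference was -0.34 ± 0.43 for ACP and 0.17 ± 0.14 for Acpr, with a background of 3.25%. In F3 male heads ACP differed by -0.02 ± 0.43, with 12% of genes called. Without A1A, A2A and A15A the difference was 0.83 ± 0.26, higher at 2N, with adjusted p = 0.0235 in edgeR. These libraries had the highest ACP of their groups and their removal narrows the spread, so this p-value is a description only. In F3 male abdomens Acpr differed by 0.80 ± 0.32 (adjusted p = 0.0529, 40.9% of genes called). There 6 of the 15 nerve genes were higher and none lower, while of the 11773 genes tested 2509 were higher and 2312 lower. The median of the list was 0.96 on the log2 scale beside 0.05 over all genes. Akhr was higher at 2N by 2.08 ± 0.35. The part of nerve tissue in the Acpr difference was not tested.

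In female abdomens edgeR called no gene between ploidies in F2 (0%) and 0.0553% of genes in F14. In F2, 1635 genes had an unadjusted p below 0.05 and DESeq2 called 394. ACP differed by 0.83 ± 1.12 in F2 and by -1.33 ± 0.88 in F14, and Acpr by 1.25 ± 0.60 and -1.01 ± 0.48, on the log2 scale.

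Differences in the ploidy effect between generations were not called in edgeR for either gene in any of the 4 sex and tissue fits. The lowest adjusted p-values were 0.0570 for ACP in female heads (-1.51 on the log2 scale), 0.0572 for ACP in male abdomens (-1.94) and 0.0648 for Acpr in female abdomens (-2.26). The share of genes called was 6.47% in female heads, 11.3% in female abdomens, 8.64% in male heads and 21.5% in male abdomens.

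Akhr did not share the head bias of the pair in males or in F14 females. Averaged over female groups it was higher in the head by 1.24 ± 0.22 on the log2 scale, called in edgeR. The female difference was 2.93 at 2N and 1.70 at 3N in F2, both called. In F14 it was 0.46 at 2N and -0.14 at 3N, neither called. In males Akhr was lower in the head, with a difference of -2.52 ± 0.16, called in edgeR. Akhr reached a mean of 236.1 CPM in F3 2N male abdomens, the group in which ACP was at 2.54 and Acpr at 10.4 CPM. Pdf was a head transcript like ACP, with differences of 10.4 in females and 9.46 in males.

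The genes with the most similar pattern were found by Pearson's r of log2(CPM + 1) over the 16 group means, among 11992 genes of at least 1 CPM in a group. For ACP these were LOC100120209 (r = 0.984), LOC116738625, Emc (r = 0.980), LOC100216354 and LOC107981710, and next among named symbols Drep2 (r = 0.969) and Ndufa8 (r = 0.968). For Acpr they were nAChRa11, a nicotinic receptor subunit (r = 0.998), LOC100680067, LOC100116867, LOC100678633 and LOC100118812, and among symbols Beat-ic and LCCH3 (r = 0.993 each). Each r spans heads and abdomens, so the difference between the tissues is part of it, and no p is given. Acpr ranked 120 among genes like ACP (r = 0.963), and ACP ranked 539 among genes like Acpr.

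Over the 8 head groups alone, with 10744 genes, the ACP pattern was nearest to LOC100115037 (r = 0.992), LOC116417806, LOC100679251, LOC100115934 and LOC100124013. Among symbols it was nearest to Ndufc2, a subunit of respiratory complex I (r = 0.980), TOM7, of the import pore of the outer mitochondrial membrane (r = 0.978), and Mto1 (r = 0.962). For Acpr the nearest genes were led by LOC100119795 (r = 0.956), and the nearest symbols were CPR37 (r = 0.927), Atp5f1 (r = 0.906) and Rad51c (r = 0.892). Between the 2 genes r was 0.738 over these 8 means, which share depth and library facts as given above, and is a description only.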

How the data were processed

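Messenger RNA with poly(A) tails was sequenced in 76 libraries, 40 of heads and 36 of abdomens, with total counts of 14.2 to 60.1 M per library. The expected counts were deposited by the authors. The submitters' processing notes name STAR 2.7.11a and RSEM 1.3.1, and 17.5% of the counts are not whole. The authors also deposited TPM values of the same libraries. Genome build, annotation and strand setting: not given in the sources used here. Symbols were matched for all 14621 genes in the table of assembly Nvit_psr_1.1, used for names only. No batch and no identical pair of libraries was found.

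Expected counts were rounded, TMM-scaled and filtered with filterByExpr. In R 4.3.3, edgeR 4.0.16 then gave the main tests (quasi-likelihood, robust), with Benjamini-Hochberg adjustment over all genes of a fit. The test was checked on simulated data. Values after ± on log2 differences are SE, computed from the difference and its F. There were 8 fits over group means: 4 by sex and tissue for ploidy, generation and their interaction, 2 by tissue for sex and 2 by sex for tissue. DESeq2 1.42.0, limma 3.58.1 on log2(TPM + 1) and log2(TPM + 0.1), and other settings served as alternatives. CPM levels share 1 TMM scale over the 76 libraries. Effective length ratios came from counts and TPM. All levels are relative to their library.

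The pair of genes, the lists and the tests were chosen with earlier results of these data known. The library set apart, A34, and the libraries left out as alternatives, A35, A1A, A2A and A15A, were known from them too. The latter had the highest ACP of their groups, and leaving them out also narrows the spread. The p-values of ACP without them are descriptions only. The genes named were ACP and Acpr, AKH and corazonin genes and their receptors, peptide-list members called where ACP or Acpr was called, and for pattern likeness the 5 genes with the highest r and the 3 with the highest r that carry a symbol. Not every comparison in which a peptide-list member was called is given. Burs and Eth were named after their values were seen.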

Additional observations from a re-analysis of the deposited data

Results flagged for a closer look

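In 3 of the 28 combinations of gene and group with enough libraries, 1 library stood far from the others of its group; chance gives about 1 in 20. For ACP these were A35 among F2 3N female heads (57.17 CPM, next 15.45), A73 among F15 1N male heads (15.79 CPM, next 26.12) and A39 among F2 3N female abdomens (0.6037 CPM, next 0.2346). A39 rests on 18 counts. The sex difference at 2N differed between the early and late generations in heads, by -3.711 for ACP and -0.515 for Acpr, and in abdomens, by -4.646 for ACP and -3.564 for Acpr, on the log2 scale. All 4 were called by the test of the difference itself in edgeR, and the male and female libraries of 1 period are 1 generation apart. The cause of none of these was tested.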

How the results depend on the processing

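Values are log2 differences. The tissue differences, the rise of ACP in 2N female heads, and the ACP sex differences of early 2N heads and of late minus early 2N heads stayed called with the same sign in every alternative and with each library left out. The causes of the changes below were not tested. The labels number the libraries in a running series but do not say whether a head and an abdomen came from the same wasp. No paired analysis was therefore made, and head and abdomen libraries were tested as independent.

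With A34 kept, F2 female heads gave 0.98 for ACP between ploidies, and Acpr gave 0.415 between generations of female heads (neither called) and 0.215 for the interaction there; the correlation within head groups became 0.741 (permutation p = 0.0955). Without A35, ACP gave 0.432 between ploidies of F2 female heads (adjusted p = 0.0549) and -0.644 for the interaction (0.0233). Without A1A, A2A and A15A, ACP gave 0.087 between generations of 1N male heads, 0.831 between ploidies of F3 male heads (0.0235) and -1.184 for the interaction (0.0197); Acpr gave -0.255 between generations of male heads (0.0623) and 0.071 between ploidies of F3 male heads.

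In fits of the compared groups alone, ACP gave 1.293 in F2 female heads (0.164), -1.842 in F15 male abdomens (0.09), 0.002 in F3 male heads and 0.463 for sex in 2N heads (0.0351), and Acpr gave 0.731 in F3 male abdomens (0.047). With no low-count filter, F3 male heads gave 0.012 for ACP and 0.009 for Acpr. DESeq2 called 3 interactions of these genes: ACP in female heads (-1.506), ACP in male abdomens (-1.893) and Acpr in female abdomens (-2.336). Over all genes, in that order, DESeq2 called 1338 of 10987, 3110 of 11773 and 2031 of 10855. In edgeR the numbers called were 711, 2531 and 1223.

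In limma on log2(TPM + 1) and log2(TPM + 0.1), in that order, ACP gave 0.838 and 0.841 for ploidy in F2 female heads (neither called), -0.178 and -0.191 in F3 male abdomens, 0.47 and 0.471 in F3 male heads, and -0.19 and -0.813 between generations of 3N female abdomens. Acpr gave 0.11 in both between generations of female heads (not called), -0.523 and -0.602 between generations of male abdomens (called), 0.096 and 0.097 for the interaction in female heads, 0.004 in both for ploidy in F14 female heads, 0.238 and 0.239 in F3 male heads, and 0.038 in both for sex in 2N heads. The correlation was -0.21 on TPM.

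With each library left out, ACP ranged from 0.432 to 1.532 for ploidy in F2 female heads, -2.158 to -1.662 in F15 male abdomens, -0.244 to 0.445 in F3 male abdomens and -0.354 to 0.465 in F3 male heads. Its interactions ranged from -1.745 to -0.644 in female heads, -2.287 to -1.598 in male abdomens and -0.83 to 0.019 in male heads. It ranged from -0.42 to 0.06 between generations of 1N male abdomens, -0.303 to 0.954 in 3N female abdomens and -0.861 to 0.008 for sex in late 2N abdomens. Acpr ranged from -0.58 to -0.303 between generations of male abdomens, -2.548 to -1.989 for the interaction in female abdomens, 0.53 to 1.084 for ploidy in F3 male abdomens and -0.088 to 0.081 in F3 male heads. Low counts in female abdomens (0 to 56 for ACP) limit what can be detected there.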
